A study of Mus musculus with 14 samples.

Results

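The genes described here encode nuclear subunits of the mitochondrial respiratory chain and of ATP synthase, with a few assembly factors named like them. They were taken by symbol from the normalized table: every row whose name begins with Nduf, Cox4 to Cox8, Uqcr or Atp5, or is Sdha, Sdhb, Sdhc or Sdhd. The rule found 84 genes of 10321 rows, and it used no measured value beyond the presence of a row in that table. The count table of 23420 symbols holds 92 such names, so 8 were in the count table only. By complex, 43 genes belong to complex I (7 core subunits, 29 accessory subunits and 7 assembly factors), 4 to complex II, 8 to complex III, 12 to complex IV and 17 to complex V. Ndufa4, first assigned to complex I, was counted with complex IV, and Atp5s and Atp5sl carry the name of ATP synthase subunits without being structural ones. All 84 genes passed the filter on low counts and had counts in all 14 libraries.

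The libraries come from a study that marks dendritic cells (DCs) according to their contact with T cells through CD40, by a method called LIPSTIC, in which sortase A on one cell attaches biotin to a pentaglycine (G5) tag on its partner. DCs from Cd40G5/G5 mice were loaded with the OVA323-339 peptide and 500000 were placed in each footpad of Cd40G5/G5 recipients. OT-II CD4+ T cells of genotype CD40lgSrtA/Y CD4-Cre (300000 cells) followed by vein after 18 hours. Biotin-LPETG (300 nmol per footpad) was given 46 hours after the T cells, and the popliteal lymph nodes were collected at 48 hours. Endogenous DCs of the C57BL/6 recipients, not the transferred ones, were sorted as MHC-II-high, CD11c+, CD11b+ and XCR1-; the sample labels give their genotype as G5-Cd40+/+ and their CD11c level as intermediate. They were split into 6 biotin-positive and 6 biotin-negative libraries of 150 cells each. The control group has 2 libraries of such DCs from Cd40-/- mice, called Cd40-null here, for which both the transferred DCs and the OT-II T cells were WT, so recipient genotype and transferred cells differ together and biotin was not used to split them. A biotin-sorted library therefore holds only part of the DCs of its node, and CD4-Cre acts in the transferred T cells. The labels give no age of the mice and do not say whether each library is from a different mouse. The p-values reflect only the spread among these libraries, which may be technical.

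Oxidative phosphorylation passes electrons from NADH (through complex I) and from succinate (through complex II) to ubiquinone, then through complex III and cytochrome c to complex IV, which reduces oxygen. Complexes I, III and IV pump protons out of the mitochondrial matrix, and ATP synthase, complex V, lets them return to make ATP. In DCs, mitochondrial respiration and glycolysis are both in use, and activation through microbial sensors is known to shift cells towards glycolysis. Mitochondrially encoded subunits were not analysed here.

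Regulation of these genes is commonly discussed through shared promoter elements, so promoters are shown for a few of them before the values. They are the 250 bases before the start site in RefSeq's GRCm38.p6 promoter table, in which 72 of the 84 genes were matched by symbol. Cox5a is shown because, of the 2 among the 84 genes called below, its log2 fold change between the biotin groups was the larger. Cox6a1, Ndufb4 and Sdha are shown because each holds at least 2 matches there to a core of the motif of NRF1, a transcription factor known for respiratory genes. Capitals mark matches to that core on either strand (a palindrome-like run of 10 bases with 1 free position), and in Cox6a1 also 1 match to the ETS (GABP) core, CCGGAAG on either strand. The windows are chr9:57520982-57521231 on the plus strand for Cox5a, and, on the minus strand, chr5:115348959-115349208 for Cox6a1, chr16:37654369-37654618 for Ndufb4 and chr13:74350241-74350490 for Sdha.
Cox5a: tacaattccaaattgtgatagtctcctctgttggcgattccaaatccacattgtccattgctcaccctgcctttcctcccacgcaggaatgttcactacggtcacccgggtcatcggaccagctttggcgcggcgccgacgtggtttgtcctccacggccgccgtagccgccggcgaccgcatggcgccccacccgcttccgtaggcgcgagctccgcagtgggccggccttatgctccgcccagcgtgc
Cox6a1: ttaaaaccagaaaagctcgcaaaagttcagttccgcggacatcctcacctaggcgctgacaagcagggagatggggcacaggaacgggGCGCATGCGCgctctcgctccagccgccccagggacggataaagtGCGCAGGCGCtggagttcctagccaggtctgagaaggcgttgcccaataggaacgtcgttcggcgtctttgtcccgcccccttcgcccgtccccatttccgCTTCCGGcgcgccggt
Ndufb4: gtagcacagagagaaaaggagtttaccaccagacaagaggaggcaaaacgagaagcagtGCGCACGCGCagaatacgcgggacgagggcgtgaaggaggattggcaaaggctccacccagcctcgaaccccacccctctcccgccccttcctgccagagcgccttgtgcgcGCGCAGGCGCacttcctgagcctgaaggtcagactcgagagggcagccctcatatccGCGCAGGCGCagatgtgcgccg
Sdha: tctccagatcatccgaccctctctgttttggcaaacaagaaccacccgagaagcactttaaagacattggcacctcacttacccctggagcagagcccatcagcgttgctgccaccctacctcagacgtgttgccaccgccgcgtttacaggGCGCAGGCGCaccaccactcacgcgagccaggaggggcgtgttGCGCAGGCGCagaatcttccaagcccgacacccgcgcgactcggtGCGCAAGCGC
Cox5a had no match to either core in these bases, Cox6a1 had 2 NRF1 matches, and Ndufb4 and Sdha had 3 each.

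Over windows of 300 bases, from 250 before to 50 after the start, 66 of the matched genes have a single promoter in the table. The NRF1 core was in 17 of these 66 (25.8%), against 10.1% of 8409 promoters of tested genes and 4.75% of all 22862 promoters. The ETS core was in 24.2%, against 17.7% and 9.12%. The core of the YY1 motif was in 4 (6.06%), against 1.75% and 0.77%. The GC box GGGCGG was in 45.5%, below the 62.4% of tested genes and above the 35.2% of all promoters. Both strands were searched for each motif, matches of different motifs may share bases, and motifs and printed promoters were chosen after values had been seen. Median GC content was 58.8% in the 66 promoters, 60.3% in those of tested genes and 52.3% in all. A match describes letters only, and no factor's binding was measured.

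Total counts per library ran from 14518099 to 33260704. Levels below are CPM, counts of a gene relative to the library's total, scaled by the TMM factors of edgeR. Cd40 checked the labels, at 1062 ± 163 CPM (SD, n = 6) in biotin-positive, 511.1 ± 78.7 (SD, n = 6) in biotin-negative and 63.7 ± 14.7 (SD, n = 2) in Cd40-null libraries. The DC genes Flt3 and Zbtb46 were present in all groups, with means of 1015 and 189 CPM, 849 and 161 CPM, and 828.6 and 182 CPM in the same order. Of the 7 DC markers listed, 1 was higher in biotin-positive than in biotin-negative libraries and 3 were lower (edgeR adjusted p under 0.05). Fscn1, an actin-bundling protein of mature DCs, was at 5867 to 8288 against 2880 to 3723 CPM. The MHC class II genes H2-Ab1 and Cd74 were at 72.6 to 400.1 against 570 to 1597 CPM and at 658 to 1575 against 1648 to 3230 CPM, and Itgax, which encodes CD11c, at 48.6 to 63.7 against 78.0 to 226 CPM. None of these 4 overlaps between the biotin groups, and their part in the results below was not tested. The biotin groups also differed in markers of other cells. The summed level of 16 monocyte and macrophage markers was 108 to 278 CPM in biotin-positive, 304.3 to 1421 CPM in biotin-negative and 365.7 and 578.4 CPM in Cd40-null libraries, and 9 of the 16 were lower in biotin-positive libraries, with none higher. C1qb and C1qc, which mark macrophages, were at 0 in at least 1 biotin-positive library, and both were above 0 in all biotin-negative ones. C1qa, from the same list, was present in every library and overlapped between the biotin groups. It was at 9.445 to 26.1 CPM in biotin-positive, 8.107 to 93.08 CPM in biotin-negative, and 6.961 and 1.394 CPM in Cd40-null libraries. The Langerhans cell markers Cd207 and Epcam summed to 211.7 to 293 CPM, 30.61 to 102.8 CPM, and 90.4 and 100.6 CPM. Plasmacytoid DC markers summed to 80.56 to 197.8 CPM, 229.6 to 531.7 CPM, and 323.5 and 377.9 CPM. Of these 5 markers, 1 was lower in biotin-positive than in biotin-negative libraries and none higher. Their log2 fold changes were above 0 in 2 and below 0 in 3. Spib was at 23.83 to 107.1 against 142.1 to 418.6 CPM, while Bst2, at 24.6 to 44.55 against 27.55 to 48.96 CPM, overlapped. T cell, B cell, NK cell and neutrophil markers each summed to at most 72.01 CPM in any library. Only tested genes were summed, which were 7 of 10 T cell, 5 of 5 B cell, 1 of 5 NK cell and 1 of 4 neutrophil markers listed. Genes with a count numbered 13090 to 13455 in the biotin-positive and 14225 to 15742 in biotin-negative libraries. In bulk libraries such as these, fewer cells of a type and less RNA per cell cannot be told apart.

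Taken as a whole, transcripts of the 84 genes took a like share of the counts in every group. Their summed level was 5681 CPM at the lowest, 5934 at the median and 6728 at the highest in biotin-positive libraries, and 5314, 5911 and 7586 in biotin-negative ones. The Cd40-null libraries had 6166 and 6690 CPM. The ranges overlap fully, and the biotin-negative group is the wider one at both ends. By gene, the mean over all libraries ran from 3.59 CPM for Ndufaf6 to 649.9 CPM for Atp5b, the catalytic beta subunit of ATP synthase. The SD of log2 CPM within a group had a median over the 84 genes of 0.22 in the biotin-positive and 0.34 in biotin-negative libraries, against 0.52 and 0.57 over all 14217 tested genes, whose median level is lower (13.6 CPM against 38.0).

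Levels can be compared between genes only per transcript length, and for this each gene's length was taken as the median over its protein-coding transcripts in GENCODE M21. In biotin-positive libraries the median level was 131.1 CPM per kb for complex IV, 93.8 for the 15 structural subunits of complex V, 77.2 for complex III and 66.4 for complex II. It was 38.5 CPM per kb for the core and 36.3 for the accessory subunits of complex I, and 6.90 for its assembly factors. By these medians complex I subunits stood below those of the other complexes, and assembly factors lowest, but single genes overlap: accessory subunits of complex I ran from 3.25 to 108.2 CPM per kb and complex V subunits from 11.9 to 329.5. In biotin-positive libraries the longest transcript in place of the median length gave the same order, with 118.1, 77.19, 77.16, 66.4, 34.1, 30.0 and 5.68 CPM per kb. The order was not the same in every group. In biotin-negative libraries, by median length, accessory subunits (38.8) stood above core ones (35.4). In Cd40-null libraries, by the longest transcript, complex III (82.9) stood above complex V subunits (81.0). The highest single gene was Cox4i1, the common isoform of complex IV subunit 4, at 370.2 CPM per kb in biotin-positive, 418.8 in biotin-negative and 432.5 in Cd40-null libraries.

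Between biotin-positive and biotin-negative libraries, 2 of the 84 genes were higher and none lower at an adjusted p of 0.05 in edgeR's quasi-likelihood test, Cox5a and Atp5a1. Of all tested genes, 7.75% were called in this comparison, 3.70% higher and 4.05% lower. At an unadjusted p under 0.05, 3 were higher and 7 lower, against 9.21% and 11.8% of all genes. The log2 fold change was above 0 in 30 genes and below 0 in 54, with a median of -0.09 and a range from -1.01 to 0.55; over all genes the median was -0.03 and 47.5% were above 0. The 95% interval of the difference lay within 2-fold in either direction for 79 of the 84 genes, as it did for 43.0% of all genes. The median level of the 84 genes is higher (38.0 CPM against 13.6). What part level has in this and in the like shares below was not tested. The exceptions were Ndufaf4, Ndufaf5, Ndufaf6, Atp5s and Ndufb2, each with a mean under 10 CPM. Other genes with a mean under 10 CPM had intervals within 2-fold.

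**Figure D1:**
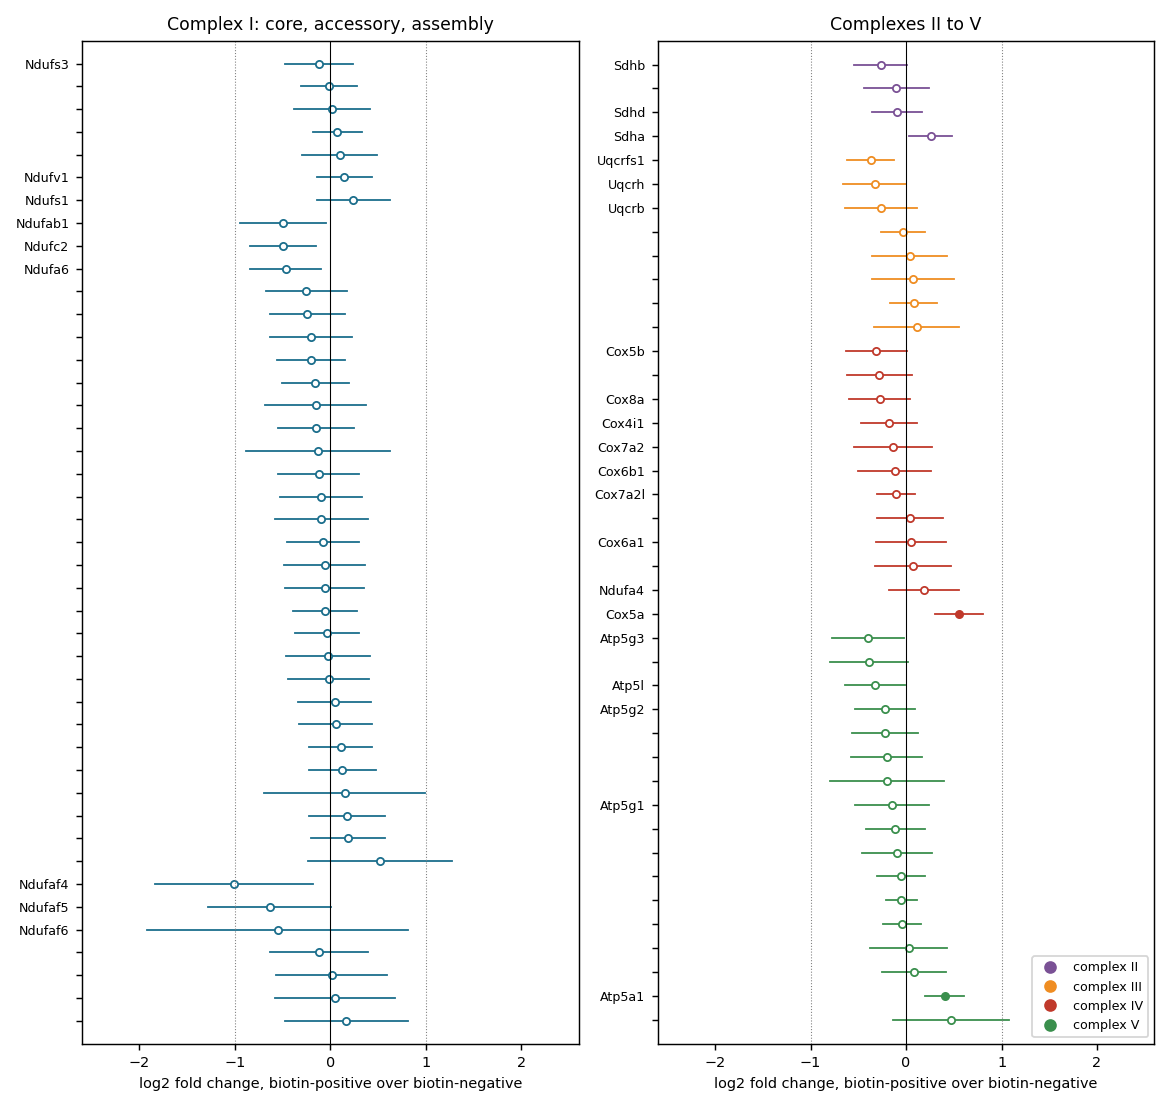
Log2 fold change of each of the 84 genes, biotin-positive over biotin-negative (x axis), with its 95% interval from edgeR's test, complex I on the left and complexes II to V on the right, with 29 genes labelled. Filled points are the 2 genes called at an adjusted p of 0.05, Cox5a and Atp5a1, and dotted lines mark a 2-fold difference, within which 79 intervals lie.

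Cox5a (chr9:57517328-57532427, RefSeq gene coordinates on GRCm38.p6) encodes a nuclear subunit of cytochrome c oxidase, complex IV. Its level was 135.5 CPM at the lowest, 172.5 at the median and 202.1 at the highest in biotin-positive libraries, and 93.8, 115.7 and 150.5 in biotin-negative ones. The Cd40-null libraries had 138.8 and 124.4 CPM. Biotin-positive libraries were mostly high, and the groups overlap through biotin-positive 4 (135.5 CPM) and biotin-negative 2 (150.5 CPM), the only biotin-negative library above any biotin-positive one. The means were 171 ± 22.4 CPM and 117 ± 18.6 CPM (SD, n = 6 each), a difference of 1.47-fold (log2 0.55, SE 0.12, 95% interval 0.30 to 0.81, edgeR adjusted p = 0.00822).

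Atp5a1 (chr18:77773768-77782869) encodes the alpha subunit of the F1 head of ATP synthase, which together with beta forms the ring where ATP is made. Its level was 393.1, 513.6 and 552.7 CPM at the lowest, median and highest in biotin-positive libraries and 319.0, 380.0 and 423.8 CPM in biotin-negative ones. The Cd40-null libraries had 451.5 and 410.5 CPM. The groups overlap through biotin-positive 5, at 393.1 CPM, and the other 5 biotin-positive libraries lie above all biotin-negative ones. The means were 500.1 ± 60.8 and 377 ± 38.5 CPM (SD, n = 6 each), with a log2 fold change of 0.41 (SE 0.10, 95% interval 0.20 to 0.61, edgeR adjusted p = 0.015).

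Both calls rest on groups that also differ in cell markers and in detected genes, as given above. With the mean level of the monocyte and macrophage markers as a covariate, Cox5a had a log2 fold change of 0.69 (adjusted p = 0.298) and Atp5a1 one of 0.68 (adjusted p = 0.118), and neither was called. With detected genes per library as the covariate the values were 0.38 (adjusted p = 0.675) and 0.56 (adjusted p = 0.367). These covariates take values that do not overlap between the biotin groups, and with them 140 and 11 of all genes were called in place of 1102. What part cell mixture or detection has in the differences was not tested.

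**Figure D2:**
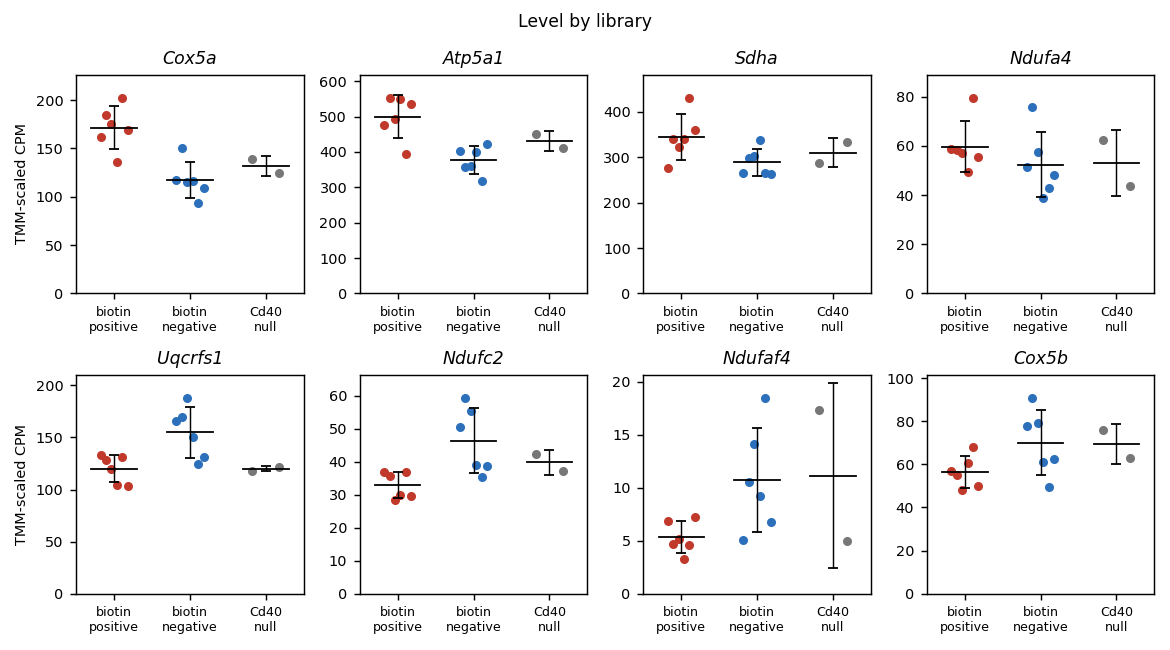
Level in CPM (y axis, from 0) of 8 genes in each library by group; points are libraries, horizontal lines the group means and bars the SD. Cox5a and Atp5a1 lie mostly higher in biotin-positive libraries, while Sdha, Ndufa4, Uqcrfs1, Ndufc2, Ndufaf4 and Cox5b overlap between the groups and did not pass the test.

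Within complex I, none of the 43 genes was called between the biotin groups. The 7 core subunits, which carry the electron path from NADH to ubiquinone, had log2 fold changes from -0.12 to 0.24. Ndufs1, the largest iron-sulphur subunit, had 60.01, 66.6 and 95.4 CPM at the lowest, median and highest in the biotin-positive and 35.2, 62.4 and 74.7 CPM in the biotin-negative libraries (log2 0.24, SE 0.18, adjusted p = 0.522). Ndufv1, the NADH-binding subunit, had medians of 57.7 and 55.3 CPM (log2 0.15, SE 0.14, adjusted p = 0.626). For Ndufs3, a subunit of the arm that reaches into the matrix, the medians were 29.3 and 31.6 CPM (log2 -0.12, SE 0.17, adjusted p = 0.772). In all 3 genes the ranges of the groups overlap.

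The 29 accessory subunits, which surround the core and are needed for its assembly and stability, had a median log2 fold change of -0.08, with 21 below 0. At an unadjusted p under 0.05, 3 of the 29 were lower and 0 higher, against 11.8% and 9.21% of all tested genes. Ndufc2, a subunit of the membrane arm, had 28.5, 32.7 and 36.9 CPM in biotin-positive libraries and 35.4, 44.7 and 59.2 CPM in biotin-negative ones (log2 -0.50, SE 0.16, adjusted p = 0.0749). For Ndufa6 the values were 33.3, 41.9 and 47.1 CPM against 40.9, 53.9 and 83.0 CPM (log2 -0.47, SE 0.18, adjusted p = 0.127). Ndufab1, the mitochondrial acyl carrier protein, which also serves fatty acid synthesis, had 8.77, 12.1 and 16.4 CPM against 13.2, 17.9 and 20.6 CPM (log2 -0.50, SE 0.21, adjusted p = 0.18). In each, the top of the biotin-positive range overlaps the bottom of the biotin-negative one. DESeq2, run as an alternative, called 4 of the 84 genes lower, against 6.47% of all genes it tested, and Ndufc2 (log2 -0.50, adjusted p = 0.0128) and Ndufab1 (log2 -0.50, adjusted p = 0.0391) were among them.

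The 7 assembly factors help to build complex I and are not part of it. Ndufaf4 had 3.26, 4.92 and 7.27 CPM in the biotin-positive and 5.11, 9.88 and 18.4 CPM in the biotin-negative libraries (log2 -1.01, SE 0.39, adjusted p = 0.135). Its Cd40-null libraries had 17.3 and 5.01 CPM, so the 2 controls alone differ as widely as the biotin groups. Ndufaf5 was the only 1 of the 84 genes whose biotin groups did not overlap, against 5.02% of all tested genes, at 3.76 to 6.64 CPM in the biotin-positive and 6.79 to 10.4 CPM in the biotin-negative libraries (log2 -0.63, SE 0.31, adjusted p = 0.249). DESeq2 called it lower (log2 -0.64, adjusted p = 0.0248). Ndufaf6, the lowest of all, had a 95% interval from -1.92 to 0.82, too wide to show a difference of 2-fold.

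Complex II, succinate dehydrogenase, serves both the TCA cycle and the respiratory chain. Its flavoprotein subunit Sdha, which oxidizes succinate, had 276.3, 340.5 and 430.9 CPM in the biotin-positive and 262.7, 281.3 and 338.5 CPM in the biotin-negative libraries (log2 0.26, SE 0.11, unadjusted p = 0.0259, adjusted p = 0.161). Sdhb, the iron-sulphur subunit, lay the other way, at 45.8, 57.3 and 66.2 CPM against 58.9, 65.6 and 85.6 CPM (log2 -0.27, SE 0.13, adjusted p = 0.265). For the membrane anchor Sdhd the medians were 101.5 and 108.8 CPM (log2 -0.09, SE 0.12, adjusted p = 0.756). None of the 4 genes passed the test, and all ranges overlap.

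In complex III, which passes electrons from ubiquinol to cytochrome c, none of 8 genes was called. Uqcrfs1, the Rieske iron-sulphur protein at its catalytic centre, had 103.4, 123.9 and 133.4 CPM in the biotin-positive and 124.5, 158.5 and 187.6 CPM in the biotin-negative libraries (log2 -0.37, SE 0.12, adjusted p = 0.0637). In Cd40-null libraries it was at 118.1 and 121.9 CPM, among the biotin-positive values and below all biotin-negative ones. Uqcrfs1 was called lower by DESeq2 (log2 -0.37, adjusted p = 0.0152) and in a fit of only the genes of the normalized table (log2 -0.38, adjusted p = 0.0462). The hinge protein Uqcrh had medians of 80.9 and 95.2 CPM (log2 -0.33, SE 0.16, adjusted p = 0.241), and Uqcrb, a small subunit, had 38.3 and 48.0 CPM (log2 -0.26, SE 0.18, adjusted p = 0.473).

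The 12 complex IV genes hold several with tissue isoforms. Cox4i1 had medians of 264 CPM in the biotin-positive and 294 CPM in the biotin-negative libraries (log2 -0.18, SE 0.14). The common isoforms Cox6a1, Cox6b1 and Cox7a2 had log2 fold changes of 0.05, -0.12 and -0.14, each smaller than its SE. Cox5b, the zinc-binding subunit, had 48.3, 55.8 and 68.0 CPM against 49.4, 69.9 and 90.6 CPM (log2 -0.31, SE 0.15, adjusted p = 0.26). For Cox8a, the smallest subunit, the medians were 103.8 and 113.2 CPM (log2 -0.28, SE 0.15, adjusted p = 0.331). Cox7a2l, known for joining complexes III and IV in supercomplexes, had 289 and 309.5 CPM (log2 -0.11, SE 0.10, adjusted p = 0.608). Ndufa4 had 57.7 and 49.8 CPM (log2 0.19, SE 0.17, adjusted p = 0.629).

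Cox5a was also set against 2 of the other complex IV genes within each library. The log2 ratio of Cox5a to Cox5b within a library was 1.155 to 1.861 in the biotin-positive and 0.53 to 0.94 in biotin-negative libraries, and 0.87 and 0.98 in Cd40-null ones. That of Cox5a to Cox4i1 was -0.98 to -0.49, -1.61 to -1.19, and -1.45 and -1.17 in the same order. These ratios are of CPM and not per length, so only their change between libraries can be read. The pairs were chosen after the values had been seen, from genes that lean the other way than Cox5a, and the ratios are given with no test. Genes that lean the same way, such as Ndufa4, were not paired with it.

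Isoforms of these subunits that belong to muscle, testis or other tissues were in the count table only, and most were at or near 0. Cox8b, Cox8c and Ndufa4l2 had no count in any library, which over the counts of all libraries allows a level of up to 0.0104 CPM (3 counts, counting error only). Cox6a2, Cox7b2, Cox4i2 and Cox7a1 had 8, 3, 53 and 71 counts in all 14 libraries together. Cox6b2, an isoform known from testis, had 2 to 8 counts in biotin-positive, 13 to 76 in biotin-negative and 12 and 18 in Cd40-null libraries. Its biotin groups did not overlap, as in 5.02% of all tested genes, and it was not called (log2 -2.38, SE 0.90, edgeR adjusted p = 0.124). The means were low, at 0.308 and 1.62 CPM.

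In complex V, Atp5a1 was the only 1 of 17 genes called. The beta subunit Atp5b, its partner in the F1 head, had a log2 fold change of -0.05 (SE 0.08, 95% interval -0.21 to 0.11), and the gamma subunit Atp5c1, which turns inside the head, one of -0.04 (SE 0.09). The log2 ratio of Atp5a1 to Atp5b within a library was -0.74 to -0.19 in biotin-positive, -0.97 to -0.65 in biotin-negative, and -0.71 and -0.67 in Cd40-null libraries, so for this pair the groups overlap. Atp5g3 had 21.6, 25.9 and 35.1 CPM in the biotin-positive and 23.2, 36.6 and 41.3 CPM in the biotin-negative libraries (log2 -0.40, SE 0.18, adjusted p = 0.211). Atp5l, subunit g of the membrane part, had medians of 84.2 and 94.1 CPM (log2 -0.32, SE 0.15, adjusted p = 0.226). Both overlap between the groups.

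Atp5g1, Atp5g2 and Atp5g3 encode the same mature c subunit of the proton-driven ring with different import sequences, so their counts can be read together. Atp5g2 took 67.2% ± 3.08 (SD, n = 6) of their summed counts in biotin-positive, 65.9% ± 4.79 (SD, n = 6) in biotin-negative and 69.6% ± 2.76 (SD, n = 2) in Cd40-null libraries. Atp5g1 took 17.9%, 16.9% and 16.6%, and Atp5g3 took 14.9%, 17.2% and 13.9% on average. These shares differ between groups by no more than about the spread within them. They are of counts and not per length.

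In the main test none of the 84 genes was called between Cd40-null libraries and either biotin group. The comparisons share these 2 controls, so the counts below are not independent of each other. Biotin-positive against Cd40-null libraries gave 0 called genes of 84 with edgeR, against 2.27% of all genes, and 1 higher and 3 lower at an unadjusted p under 0.05, against 7.16% and 6.65% of all genes. Those were Cox5a (log2 0.38, SE 0.17, adjusted p = 0.337), and Cox7a2l (log2 -0.32, SE 0.13, adjusted p = 0.285), Ndufaf5 (log2 -0.99, SE 0.41, adjusted p = 0.28) and Sdhb (log2 -0.43, SE 0.18, adjusted p = 0.295). DESeq2 called 1 lower, Ndufaf5, against 2.28% of all genes it tested. The median log2 fold change was -0.12, against 0.04 over all genes. It was -0.01 without Cd40-null 1, -0.19 without Cd40-null 2, -0.08 without biotin-positive 2 and 0.02 with the trend on transcript length described below removed, so it depends on single libraries. The 95% interval of the difference lay within 2-fold for 72 of 84, against 30.1%. All biotin-positive libraries lay below both Cd40-null ones for 11 of the 84 genes and above both for 0. Over all 14217 tested genes these numbers were 1147 and 1111.

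Biotin-negative against Cd40-null libraries also gave 0 called genes of 84 with edgeR, against 0.317% of all genes, and 0 with DESeq2, against 2.69%. At an unadjusted p under 0.05, 1 gene was higher and 1 lower, against 5.75% and 3.47% of all genes. The higher one was Uqcrfs1 (log2 0.37, SE 0.17, adjusted p = 0.519). The median was -0.05, against 0.06 over all genes. It was 0.05 without Cd40-null 1 (52 genes above 0 and 32 below), -0.13 without Cd40-null 2 and also without biotin-negative 2, and between -0.02 and -0.01 without biotin-negative 1, 4, 5 or 6. With detected genes as a covariate it was 0.22. In the fit of all libraries 72 of 84 intervals lay within 2-fold, against 32.1%. All biotin-negative libraries lay above both Cd40-null ones for 1 of the 84 genes and below both for 0. Over all 14217 tested genes these numbers were 886 and 635. For Cox5a and Atp5a1 the log2 fold changes were -0.17 (SE 0.17) and -0.19 (SE 0.14), and in biotin-positive against Cd40-null libraries Atp5a1 had 0.21 (SE 0.14). With 2 control libraries these intervals are wide.

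**Figure D3:**
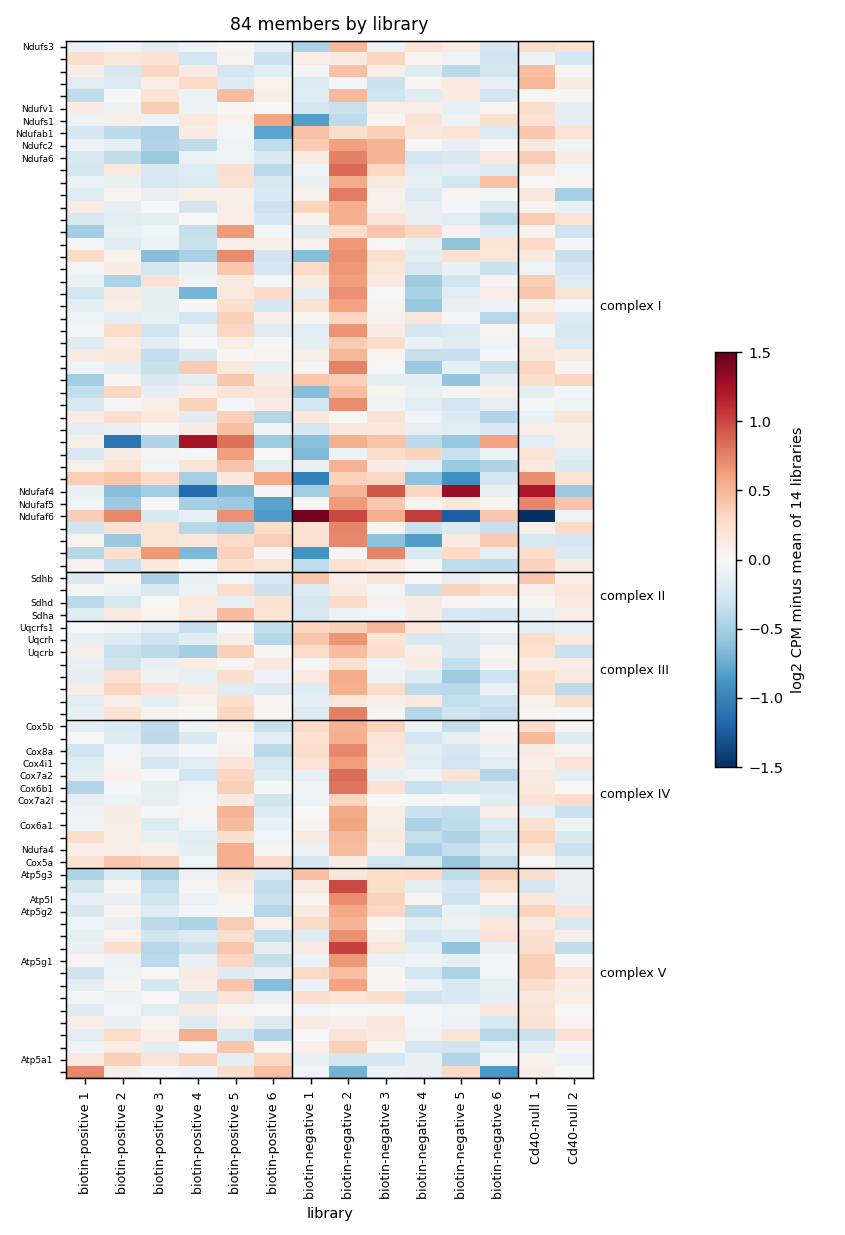
Log2 CPM of the 84 genes (rows, by complex) minus the gene's mean over 14 libraries (columns, by group), with red above and blue below that mean and 29 genes labelled. The column of biotin-negative 2 is red over most rows, as it is the highest of 14 libraries for 49 of the 84 genes.

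Among libraries, biotin-negative 2 stood apart from its group: the 84 genes deviated from their group mean there by a median of 0.48 on the log2 scale. Biotin-positive 5 was next at 0.23, and no other library went past 0.10 above its group, while biotin-negative 5 was lowest at -0.24. Without biotin-negative 2, the median log2 fold change between the biotin groups was 0.03, with 47 genes above 0 and 37 below. In the main fit, the lean to lower values described above thus depends on this library. The median was -0.12 without biotin-positive 5 and also without biotin-negative 4. With detected genes as a covariate it was -0.36 (9 genes above 0 and 75 below), and with the marker covariate -0.15. Cox5a and Atp5a1 were still the called genes without biotin-negative 2.

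The same libraries deviated for short transcripts of other genes. Among genes outside the 84 with a mean of at least 10 CPM, the 509 with transcripts under 1 kb deviated by a median of 0.40 in biotin-negative 2 and 0.21 in biotin-positive 5. The 1901 genes over 4 kb deviated by -0.09 and -0.03. The 84 genes are short, with a median transcript of 772 bases. The 83 cytosolic ribosomal protein genes deviated by 0.51 and 0.29, and genes of the mitochondrial ribosome by 0.29 and 0.16, but those of the TCA cycle by 0.02 in both. Length classes and the cytosolic ribosome list were chosen after the data had been seen.

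**Figure D4:**
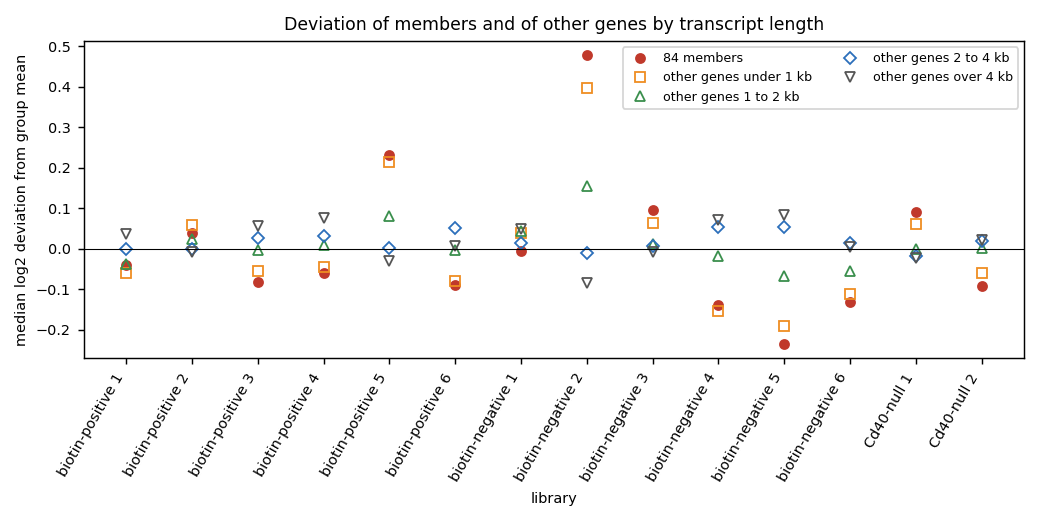
Median log2 deviation from the group mean (y axis) in each library (x axis) for the 84 genes (filled circles) and for other genes by transcript length (open symbols). In biotin-negative 2 the 84 genes lie at 0.48 and other genes under 1 kb at 0.40, and longer classes lie nearer to 0 or below it.

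A fit with the trend of each library on transcript length removed, added after seeing the data, gave a median of 0.03 over the 84 genes, with 47 above 0 and 37 below. It called 3 genes higher in biotin-positive libraries: Cox5a (log2 0.71, SE 0.09, adjusted p = 7.36e-05), Atp5a1 (log2 0.41, SE 0.09, adjusted p = 0.00983) and Ndufa4 (log2 0.41, SE 0.12, adjusted p = 0.0331). Of all genes, 4.69% were called higher in this fit, a larger share than 3 of 84. In this fit Cox5a was also called against Cd40-null libraries (log2 0.53, SE 0.13, adjusted p = 0.0382), as were 2.65% of all genes in either direction. Lengths from the longest transcript, which were tried first, called the same 3 genes and Cox5a against Cd40-null, against 4.69% of all genes higher and 2.47% in either direction, and gave a median of 0.01 with 42 genes on either side of 0.

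Genes around the respiratory chain were taken from lists chosen with earlier results known. Between the biotin groups none of 24 tested genes for cytochrome c and the assembly of complexes III and IV was called, none of 14 regulators of mitochondrial biogenesis, none of 19 of the TCA cycle and pyruvate dehydrogenase, and none of 76 of the mitochondrial ribosome. Of all tested genes, 7.75% were called in this comparison. Of 13 tested genes for the assembly of complexes I, II and V, 1 was lower and none higher, against 4.05% and 3.70% of all genes. The lower one was Acad9, which acts in complex I assembly, at 65.9, 79.1 and 91.6 CPM in the biotin-positive and 89.5, 114.9 and 146.4 CPM in the biotin-negative libraries (log2 -0.57, SE 0.13, adjusted p = 0.0111). Its groups overlap through a single biotin-negative library. The medians of the 5 lists ran from -0.04 to 0.10. In both comparisons with Cd40-null libraries none of these genes was called. Of all genes, 2.27% were called there for biotin-positive and 0.317% for biotin-negative libraries.

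Several small subunits have processed pseudogenes or near copies in the genome, and reads shared with them could be counted to either, so their single values are uncertain.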

How the data were processed

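Polyadenylated RNA of 14 Smart-seq2 libraries was read as 38 bp pairs, per the labels' protocols. The submitters' processing notes name Bowtie2 2.1.0, RSEM 1.2.8, DESeq2 1.16.0 and mm10, with no roles, and the annotation is not given in the sources used here. The authors deposited RSEM expected counts for 23420 symbols, which were rounded to whole numbers for the tests. Their second deposited table gives a normalized signal for 10321 genes, which equals the count over 1 factor per library; how its genes were chosen is not stated.

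The test was edgeR 4.0.16 in R 4.3.3: filterByExpr by group at min.count 10 (14217 genes tested), TMM, 1 robust quasi-likelihood fit of all libraries, two-sided, called at a Benjamini-Hochberg adjusted p of 0.05 over all tested genes. SEs are the log2 fold change over the square root of F, and intervals are 95%. Log2 CPM used a prior count of 2. Groups are those of the sample labels. The pipeline was tested on simulated data. Rn45s, a ribosomal RNA gene, took 15.05% to 21.46% of counts and stayed in the libraries' totals, except in 1 alternative.

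Named genes are those called, the 3 with the smallest p between the biotin groups in each complex (complex I in 3 classes), isoform pairs, and genes whose biotin groups did not overlap; Atp5b, Atp5c1 and Acad9 were named after their values were seen. The values of 1 gene are not reported here. The genes, lists and tests were chosen with earlier results of these data known. Alternatives were other scalings and filters, DESeq2 1.42.0, limma 3.58.1 (voom, and the deposited signal with a pseudocount of 1), covariates, a replicate block, fewer groups and each replicate left out. Intervals come from the same fit as the p-values and reflect the spread among these libraries, which may be technical. Floors cover counting error only, since reads carry no molecular identifiers.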

Additional observations from a re-analysis of the deposited data

Results flagged for a closer look

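Within groups of 6 libraries, 70 sets of values (29 named genes and 6 summed levels in each biotin group) were examined for a single library far from the others by Dixon's 95% critical value for 6 samples. In 9 of them a library stood apart. For a single set chance gives about 1 in 20, but the sets share libraries and the summed levels include the named genes. The 9 are thus not independent, and their number cannot be compared with that rate. Biotin-negative 2 was high for Cox7a2l (388.1 CPM), Atp5g1 (52.53 CPM) and the summed level of complex IV (1972 CPM). Biotin-positive 5, the deepest library at 33260704 counts, was high for Cox6a1 (98.02 CPM), Ndufa4 (79.49 CPM) and the summed levels of complex I (1482 CPM) and complex III (727 CPM). Biotin-positive 6 was high for Ndufs1 (95.41 CPM) and biotin-positive 3 for Ndufv1 (74.35 CPM). None of these genes was called in any comparison of the main test.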

How the results depend on the processing

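Between the biotin groups Cox5a and Atp5a1 were called under every alternative run except the covariates of detected genes and of monocyte and macrophage markers, with which 0 of the 84 genes were called higher. The number lower was 4 with DESeq2 (Ndufab1, Ndufaf5, Ndufc2 and Uqcrfs1), 1 in the genes of the normalized table (Uqcrfs1), and 0 to 2 with 1 replicate left out: 2 without biotin-negative 5 (Ndufc2 and Uqcrfs1) and 1 without biotin-negative 6 (Uqcrfs1). In biotin-positive libraries compared with Cd40-null ones, 1 gene was lower with DESeq2 and 1 higher with the length trend removed by either length. Of all genes, the biotin comparison called 1744 with DESeq2, 11 with detected genes and 140 with the marker covariate, against 1102. Biotin-positive against Cd40-null libraries called 881 with DESeq2, 606 with voom and 165 with the marker covariate, against 323, and 78 to 346 with 1 replicate left out, with 78 and 95 without Cd40-null 1 and 2. Biotin-negative against Cd40-null libraries called 363 with DESeq2, 81 on the deposited signal, 29 with only the 2 groups and 6 with detected genes, against 45, and 12 to 54 with 1 left out, with 21 and 12 without Cd40-null 1 and 2. The causes were not tested.

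Of 928 values of named genes between the biotin groups under alternatives, 900 kept direction and call, 10 gained a call, 4 lost it and 14 changed sign. With detected genes as a covariate the log2 fold changes were -0.026 for Sdha, -0.23 for Cox6a1 and -0.023 for Ndufa4. With the marker covariate they were 0.19 for Sdhd and -0.15 for Cox6a1. With 1 replicate left out Cox6a1 ran from -0.053 (without biotin-positive 5) to 0.21 (without biotin-negative 2), and was below 0 also without biotin-negative 4 and biotin-negative 5. Cox6b1 ran from -0.21 (without biotin-positive 5) to 0.081 (without biotin-negative 2) and Cox7a2 from -0.23 (without biotin-negative 6) to 0.069 (without biotin-negative 2). They were at 0.12 and 0.029 with the length trend removed, and at 0.12 and 0.067 with the longest transcript. Without biotin-negative 2 and biotin-positive 5, chosen after seeing the data, the median of the 84 genes was -0.01 and Cox5a and Atp5a1 remained the called genes.

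The labels number both biotin groups 1 to 6, but same-numbered libraries did not deviate together (r from -0.023 to 0.013; only number 3 correlated best with its own), so the numbers are not read as pairs. With the replicate block, Cox5a (adjusted p = 0.0311) and Atp5a1 (adjusted p = 0.0156) were called, with 0 of the 84 lower and 833 of all genes. Between the biotin groups the intervals of Ndufaf4, Ndufaf5, Ndufaf6, Atp5s and Ndufb2 reach past 2-fold, and why was not tested. The 2 Cd40-null libraries limit both comparisons with them.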
